A study of Mus musculus with 30 samples.

Results

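Proteasome genes were examined in NOS1+ N1E115 cells, a mouse neuroblastoma line, by chromatin immunoprecipitation followed by sequencing. The members were taken by name alone, as the protein-coding genes whose RefSeq symbol begins with Psma, Psmb, Psmc, Psmd, Psme, Psmf or Psmg followed by a number. This gave 51 of 21887 protein-coding genes. One group of libraries came from cells kept for 3 days at 4% O2 and the other from cells kept for 3 days at 20% O2, and the NOS1+ line was common to both. Each O2 level had 2 libraries for each of 6 antibodies, 24 in all, and 6 input libraries are not analysed here. The antibodies were directed at RNA polymerase II (POLR2), at polymerase carrying phosphate on serine 5 (POLR2S5) or serine 2 (POLR2S2) of its tail, at acetylated lysine 9 of histone H3 (H3K9ac), at the cohesin subunit RAD21 and at the insulator protein CTCF. The labels describe the cells as neuroblasts of brain and do not say whether the 2 libraries of a level came from separate cultures, so each p-value speaks of the spread between 2 libraries per level, possibly of technical origin.

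The proteasome is the large protease that degrades proteins tagged with ubiquitin. Its barrel-shaped core is built of alpha and beta rings, and the active sites sit on the inner face of certain beta subunits. A regulatory particle of ATPases and non-ATPase subunits caps the core, binds and unfolds tagged proteins and feeds them in. The subunits are made together in nearly all cells, and interferon adds the immunoproteasome subunits, which replace the usual catalytic ones. H3K9ac marks active promoters, serine 5 phosphorylation is found on polymerase near the start of genes, and serine 2 phosphorylation is found on polymerase elongating through them.

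The 51 members held 7 alpha ring genes, 4 non-catalytic and 3 catalytic beta ring genes, 3 immunoproteasome genes and 2 tissue-restricted ring genes. The regulatory particle contributed 6 ATPase and 11 non-ATPase genes. A further 7 genes encode assembly chaperones, 5 encode activators or a copy of one, and Psmf1 encodes an inhibitor. Psmc3ip and Psme3ip1 passed the naming rule although they are named for a partner of a proteasome protein and are not subunits. The members lay on 16 chromosomes and had a median length of 11.6 kb, against 17.2 kb for all protein-coding genes. Of the 51 windows (the gene and 1 kb each side), 30 also touched another protein-coding gene, so a peak there could belong to a neighbour. Psme2b is a short copy of the activator gene Psme2, and reads of the pair may not be separable.

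Markers of sympathetic neuroblasts carried H3K9ac, though the labels say neuroblasts of brain and do not call them sympathetic. Over all genes, H3K9ac was called at 60.2% and 62.9% at 4% O2, against 61.9% and 62.8% at 20% O2. Peaks lay at 11 and 12 of 12 sympathetic neuroblast markers at 4% O2, against 11 and 11 at 20% O2. Nos1 was the marker with a peak in 1 library only, 4% O2 replicate 2. Of 8 macrophage and lymphocyte markers, 2 had H3K9ac peaks in each of the 4 libraries (Cd68 and Cd79a), while Ptprc, Csf1r and Cd3e had none. Peaks also lay at 3 of 6 endothelial markers (Pecam1, Tek and Vwf) and 2 of 6 fibroblast markers in every library, and at 2 and 2 of 6 glial markers at 4% O2, against 3 and 2 at 20% O2. All libraries were labelled as the N1E115 line, and whether any other cells were present was not tested. No source used here states the sequencing depth of a library. Reads inside called POLR2S2 islands summed to 10433289 and 16597869 in 4% O2 replicates 1 and 2, against 4874802 and 9701942 in 20% O2 replicates 1 and 2. Such sums cover called islands alone and are not depths. For POLR2 the 4% O2 libraries summed to 5933802 and 10173255 and the 20% O2 libraries to 2057835 and 8598930, and for POLR2S5 the 4% O2 libraries summed to 10979255 and 12010384 and the 20% O2 libraries to 5926664 and 12374730. The 20% O2 replicate 1 library had the fewest reads in islands for every polymerase form. Replicates 1 and 2 were sequenced on different flow cells, per the file headers, and are called rounds 1 and 2 here.

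Nearly every proteasome gene was marked by H3K9ac and occupied by polymerase at both O2 levels. H3K9ac peaks lay in the windows of 48 of 51 members in all 4 libraries, against a background of 58.9% of all genes. POLR2S5 islands covered 47 members in all 4 libraries (background 52.7%), POLR2S2 islands 44 (background 42.8%) and POLR2 islands 40 (background 42.2%). CTCF peaks were found at 31 members (60.8%) in all 4 libraries (background 51.6%) and RAD21 peaks at 14 (27.5%, background 34.6%), so these shares lay nearer to those of all genes.

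**Figure D1:**
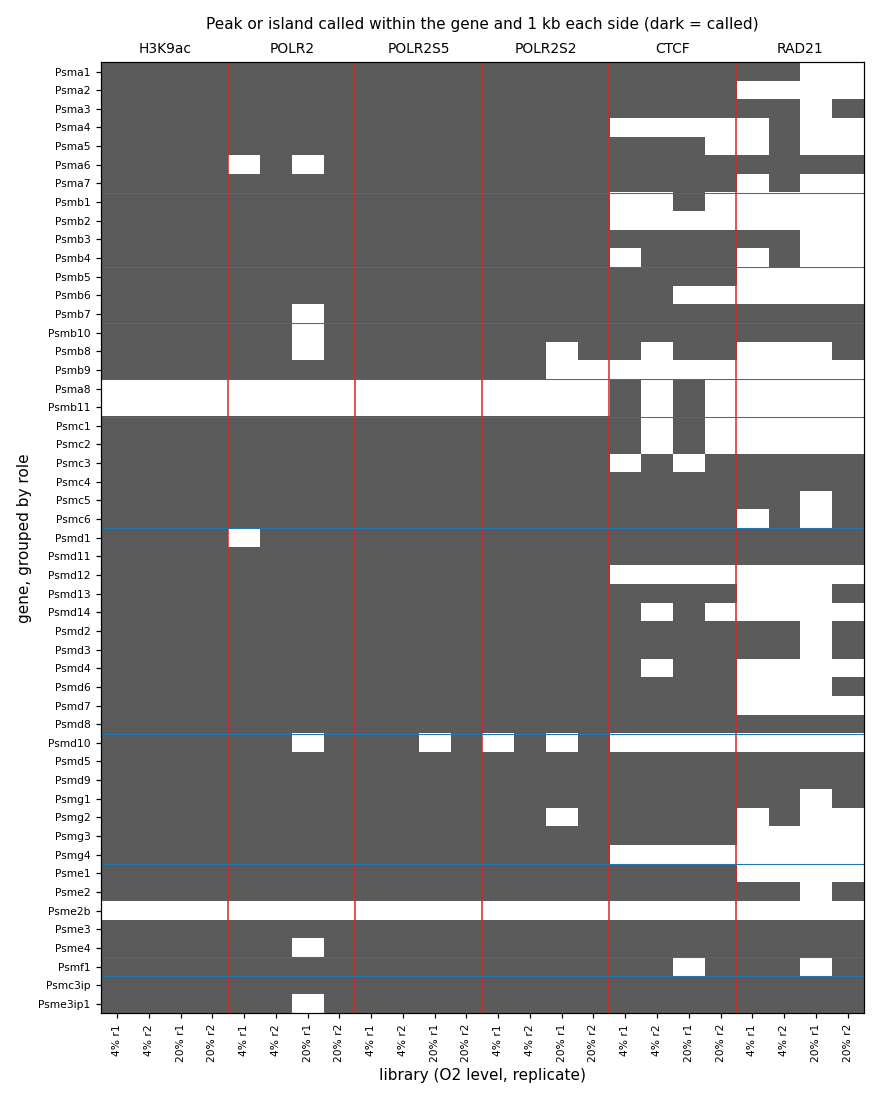
Calls at 51 proteasome genes. Each row is a gene, grouped by role, and each column is a library, with the 4% O2 libraries left of the 20% O2 libraries for each antibody. A dark cell marks at least 1 peak or island within the gene and 1 kb each side. H3K9ac and polymerase columns are dark for nearly all genes, and Psma8, Psmb11 and Psme2b are empty in all of them.

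The same 3 genes, Psma8, Psmb11 and Psme2b, had no H3K9ac peak and no island of any polymerase form in any of the 16 libraries concerned. Psma8 encodes an alpha subunit used in the testis and Psmb11 encodes the catalytic beta subunit of thymic epithelium. Their widely used counterparts Psma7 and Psmb5 had calls for H3K9ac and all 3 polymerase forms in all 4 libraries. In 20% O2 replicate 1, the POLR2S2 island called for Psmb5 covered 0.0% of the gene and lay in its flank. The immunoproteasome genes Psmb8, Psmb9 and Psmb10, whose products replace the usual catalytic subunits, carried H3K9ac in all 4 libraries too. Their polymerase calls were less complete. Psmb8 and Psmb10 had no POLR2 island in 20% O2 replicate 1, and Psmb8 had no POLR2S2 island there.

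Of the 11 members lacking a POLR2 island in at least 1 library, 3 lacked it in all 4 and 8 in some. Those 8 were Psmd1, Psmb7, Psme3ip1, Psmb10, Psme4, Psma6, Psmb8 and Psmd10. Psmd10, which encodes the assembly chaperone gankyrin, also lacked a POLR2S5 island and a POLR2S2 island in some libraries. Its POLR2S2 islands held 0 and 10.28 reads per kb of window in 4% O2 replicates 1 and 2, against 0 and 8.26 reads per kb in 20% O2 replicates 1 and 2. The gene was thus called in round 2 alone at both O2 levels.

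H3K9ac sat at the starts of proteasome genes. A strand could be assigned to 43 members through the RefSeq promoter table, and 41 of these had H3K9ac peaks in all 4 libraries. The centre of the top peak lay within 1 kb of the annotated start at 38 and 27 of 41 members at 4% O2, against 37 and 32 at 20% O2. It did so in all 4 libraries at 27 of 41, against 38.9% of 10346 genes with a strand called in all 4 libraries. The members are shorter than the median gene, as given above, and the part of length in this was not tested. Over the libraries, Psmf1, Psma5 and Psma6 had the median distances beyond 1 kb, at 3447, 1124 and 13863 bp. In some other genes, such as Psme3ip1, the top peak changed sides of the start between libraries. The annotated start base itself was inside an H3K9ac peak at 11 and 14 of 43 members at 4% O2, against 12 and 14 at 20% O2. Over 17492 genes with a strand the shares were 13.6% and 21.2% at 4% O2, against 14.9% and 21.2% at 20% O2.

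**Figure D2:**
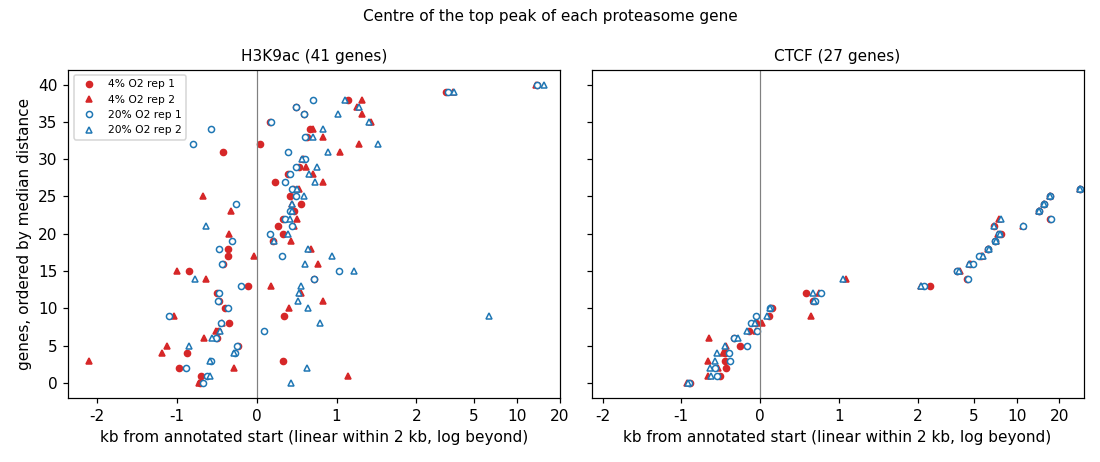
Position of the top peak of each proteasome gene. The horizontal axis gives the distance in kb of the peak's centre from the annotated start, positive downstream, linear within 2 kb and logarithmic beyond; the rows are 41 genes for H3K9ac and 27 for CTCF, and each point is 1 library. Most H3K9ac peaks lie within 1 kb of the start, on either side, and CTCF peaks fall into a group at the start and a group farther inside the genes.

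Promoter windows of the members, 250 bases before to 50 after the start, were searched on both strands for short letter patterns named after factors with known links to proteasome genes or to low oxygen. The pattern CCGGAAG (ETS core) was in 17 of 47 member windows (36.2%), against 11.6% of 21263 windows of protein-coding genes. Among windows of genes with H3K9ac in all 4 libraries the shares were 37.8% for the members and 16.6% for all. The pattern TGACNNNGC (antioxidant response element core) was in 6 of 47 member windows (12.8%), against 13.0% of all windows. It is the site class of Nfe2l1, a factor that is known to drive proteasome genes. ACGTG (HIF core) was in 19.1% of member windows against 20.9% of all, and CCAAT (NF-Y box) in 34.0% against 38.2%. GGGCGG (SP box) was in 53.2% against 46.2% and GCATGCGC (NRF1 element) in 6.38% against 3.52%. The NRF1 element is the site of a nuclear respiratory factor, which is not Nfe2l1. Of 127 sites in the member windows, 4 pairs of different patterns overlapped. These matches are descriptions of the letters and not of bound sites.

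The 150 bases before the start are shown for genes on which the comparisons below turn, from RefSeq on GRCm38.p6, the build of mm10, and written 5′ to 3′ on the strand of the gene. In the catalytic subunit genes Psmb5 and Psmb6 and the chaperone gene Psmd9, which were among the highest POLR2S2 ratios, capitals mark the antioxidant response element core. Its first base was at −47 in Psmb5, −9 in Psmb6 and −31 in Psmd9, where −1 is the last base before the start. Starts of the printed stretches are those of the RefSeq promoter entries. For Psmb6 that start lies downstream of the annotated gene start used for peak distances, chr11:70525324. Its marked core is therefore inside the gene as annotated. The core was also in the windows of Psmc6 and Psmd12, with POLR2S2 ratios of 0.05 and 0.27, and of Psme4, whose regions had −0.68, −0.91 and −1.06. The stretches are chr14:54617996-54618145 on the minus strand for Psmb5, chr11:70525207-70525356 on the plus strand for Psmb6 and chr5:123228040-123228189 on the plus strand for Psmd9.
Psmb5: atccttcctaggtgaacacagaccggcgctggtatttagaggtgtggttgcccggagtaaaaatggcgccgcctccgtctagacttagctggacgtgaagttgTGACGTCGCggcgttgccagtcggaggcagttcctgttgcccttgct
Psmb6: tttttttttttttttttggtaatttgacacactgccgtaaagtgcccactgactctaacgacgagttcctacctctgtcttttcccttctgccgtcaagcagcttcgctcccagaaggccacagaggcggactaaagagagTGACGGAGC
Psmd9: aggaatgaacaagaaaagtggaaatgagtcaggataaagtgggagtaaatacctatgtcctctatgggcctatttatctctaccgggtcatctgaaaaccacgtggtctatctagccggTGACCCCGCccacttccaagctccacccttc
H3K9ac peaks overlapped the printed stretch of Psmb5 in 4 of 4 libraries, that of Psmd9 in 2 and that of Psmb6 in 0, where peaks lay on either side of it. POLR2 and POLR2S5 islands overlapped each of the 3 stretches in 4 libraries. POLR2S2 islands overlapped that of Psmb5 in 3 libraries, that of Psmb6 in 4 and that of Psmd9 in 2.

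In the ATPase genes Psmc1, Psmc2 and Psmc6 and the non-ATPase gene Psmd11, whose H3K9ac ranks were lower at 4% O2 in both rounds, capitals mark the ETS core on either strand. The first window of Psmc2 is shown, at chr5:21785125-21785274. The others are chr12:100110052-100110201 for Psmc1, chr14:45329674-45329823 for Psmc6 and chr11:80428465-80428614 for Psmd11, all on the plus strand. In the immunoproteasome gene Psmb10, with a higher H3K9ac rank at 4% O2 in both rounds, capitals mark the HIF core, read on both strands of a palindrome, at chr8:105938393-105938542 on the minus strand. Both patterns occurred with either direction. Of 16 members with the ETS core and H3K9ac ranks, 9 were lower in both rounds and 1, Psmd13, was higher. Of 9 with the HIF core, 3 were lower in both rounds (Psma1, Psmb5 and Psme3) and 2 were higher (Psmb10 and Psmd13). Over all 48 ranked members 20 were lower and 7 higher in both rounds, and 26.6% of all ranked genes went each way. A link between pattern and direction was not tested.
Psmc1: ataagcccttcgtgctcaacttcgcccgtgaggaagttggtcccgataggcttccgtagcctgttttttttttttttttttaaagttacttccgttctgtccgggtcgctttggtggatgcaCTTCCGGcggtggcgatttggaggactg
Psmc2: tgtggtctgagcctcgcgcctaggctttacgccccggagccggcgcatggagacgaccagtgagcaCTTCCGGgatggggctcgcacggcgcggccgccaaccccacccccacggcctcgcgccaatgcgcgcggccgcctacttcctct
Psmc6: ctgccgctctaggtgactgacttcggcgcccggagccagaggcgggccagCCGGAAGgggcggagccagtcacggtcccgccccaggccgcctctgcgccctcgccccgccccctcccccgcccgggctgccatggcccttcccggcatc
Psmd11: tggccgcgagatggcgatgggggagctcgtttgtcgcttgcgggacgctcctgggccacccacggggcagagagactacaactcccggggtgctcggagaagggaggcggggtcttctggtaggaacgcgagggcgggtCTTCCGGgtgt
Psmb10: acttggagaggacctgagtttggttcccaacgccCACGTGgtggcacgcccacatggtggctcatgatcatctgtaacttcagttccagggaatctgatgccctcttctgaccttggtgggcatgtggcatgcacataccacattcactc
CTCF peaks overlapped the stretches of Psmc6, Psmd11 and Psmb10 in 4 of 4 libraries and those of Psmc1 and Psmc2 in 0. H3K9ac peaks overlapped those of Psmc1, Psmc2 and Psmb10 in 4 and those of Psmc6 and Psmd11 in 0.

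The first comparison between O2 levels used H3K9ac. MACS2 peak scores are not comparable between lists, so the top peak of each gene was ranked within its library, as a percentile among the 12885 genes called in all 4 libraries. Proteasome genes had a median rank of 61.1 over the libraries. Their median rank difference, 4% minus 20% O2, was −5.27 percentile points, with −3.39 in round 1 and −3.35 in round 2. For all genes it was −0.03 (0.04 and −0.03 in the rounds). The size of the members' median depended on the library left out, with the sign kept, as given in the last section. Ranks were lower at 4% O2 in both rounds at 20 of 48 members, against a background of 26.6% of genes, and higher in both rounds at 7, against 26.6%. Both 4% O2 ranks lay below both 20% O2 ranks at 13 members (background 12.9%) and above them at 5 (background 13.2%). The 2 libraries of 1 O2 level differed by a median of 13.8 percentile points at 4% O2 and 14.6 at 20% O2 over the same genes. With 2 libraries against 2, an exact permutation test of a single gene cannot go below p = 0.33.

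**Figure D3:**
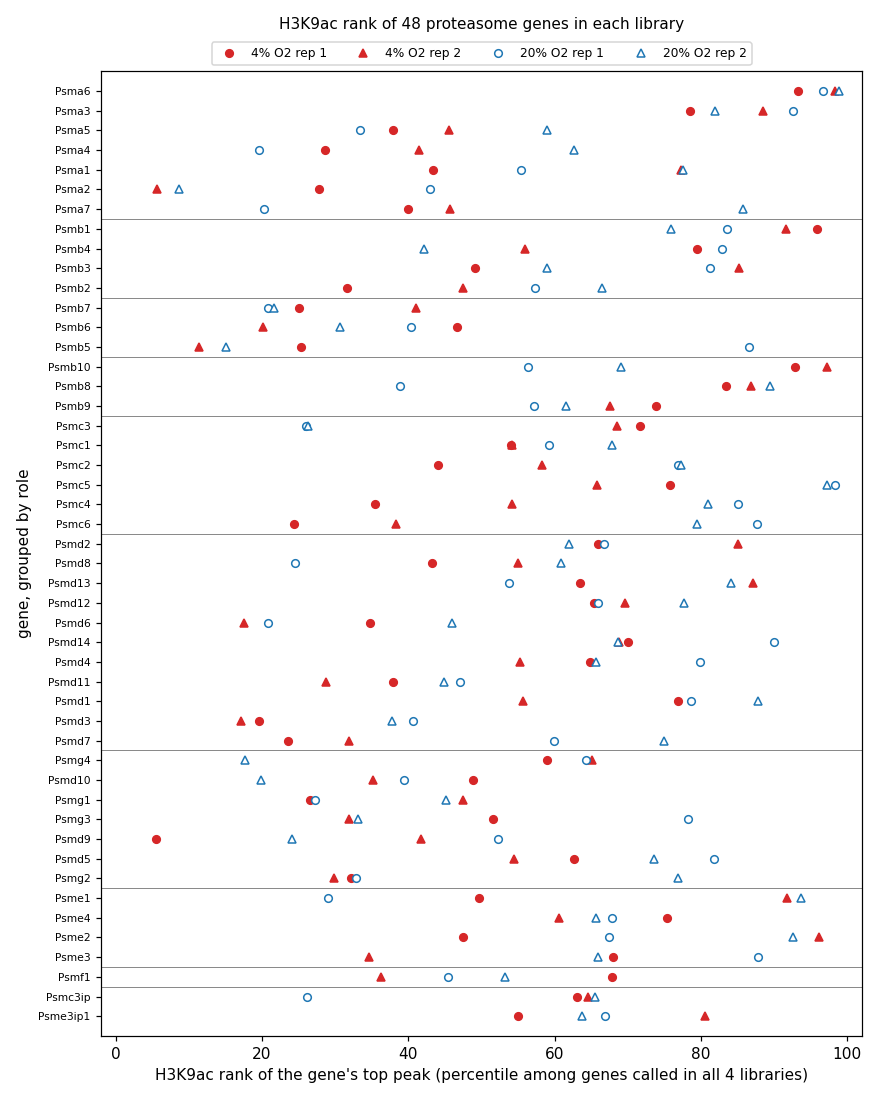
H3K9ac rank of 48 proteasome genes in each library. Each row is a gene, grouped by role; the horizontal axis is the percentile rank of its top peak, with filled red points for the 2 libraries at 4% O2 and open blue points for the 2 at 20% O2. In the ATPase group, red points lie left of blue points for Psmc1, Psmc2, Psmc4, Psmc5 and Psmc6 and right of them for Psmc3.

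The lower ranks at 4% O2 were most regular in the ATPase genes of the regulatory particle, which encode the ring that unfolds substrates. Of the 6 ATPase genes, 5 had both 4% O2 ranks below both 20% O2 ranks (background 12.9% of ranked genes), and 1 had them above (background 13.2%). The median difference of the 6 was −26.5 points. Psmc6 ranked at 24.3 and 38.3 in 4% O2 replicates 1 and 2, against 87.6 and 79.5 in 20% O2 replicates 1 and 2. Psmc4 ranked at 35.5 and 54.1 at 4% O2, against 85.1 and 81.0 at 20% O2. Psmc5 ranked at 75.7 and 65.8 at 4% O2, against 98.3 and 97.2 at 20% O2. In each of these genes the levels did not overlap, and the gap between levels exceeded the gap between replicates. Psmc2 (−25.9) and Psmc1 (−9.4) differed in the same direction. Psmc3 went the other way, with ranks of 71.6 and 68.5 at 4% O2 against 26.0 and 26.3 at 20% O2, the highest difference of all members at 43.9 points.

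When scores of all peaks of a gene were summed before ranking, Psmc2, Psmc4, Psmc5 and Psmc6 stayed lower at 4% O2 in both rounds, with differences of −9.7, −24.9, −36.0 and −37.8 points. Psmc1 turned to 4.9 points and Psmc3 kept its sign at 15.1 points. Of the non-ATPase genes 7 of 11 were then lower in both rounds and 0 higher, and of the alpha ring genes 3 of 7 lower and 0 higher. The shares of all genes lower or higher in both rounds with summed scores are not given here.

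Non-ATPase genes, which encode the lid and ubiquitin-binding parts of the regulatory particle, had lower ranks in both rounds at 6 of 11 (Psmd1, Psmd3, Psmd4, Psmd7, Psmd11 and Psmd12) and a higher one at Psmd13. The background for either direction in both rounds was 26.6% of ranked genes, here and for the roles below. Psmd7 had the next lowest difference after Psmc6, with ranks of 23.5 and 31.9 at 4% O2 against 59.9 and 74.9 at 20% O2. In the core particle, 3 of 7 alpha ring genes were lower in both rounds (Psma1, Psma2 and Psma6) and none was higher. Psma7 ranked at 40.0 and 45.7 at 4% O2, against 20.2 and 85.7 at 20% O2, so that the 20% O2 libraries enclosed the 4% O2 ones.

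The catalytic genes differed among themselves. Psmb5, which encodes the chymotrypsin-like subunit, ranked at 25.3 and 11.4 at 4% O2, against 86.5 and 15.1 at 20% O2, and its difference of −32.4 points rested on 20% O2 replicate 1. Psmb7, which encodes the trypsin-like subunit, ranked at 25.1 and 41.0 at 4% O2, against 20.8 and 21.7 at 20% O2. Psmb6, which encodes the caspase-like subunit, ranked at 46.6 and 20.1 at 4% O2, against 40.4 and 30.6 at 20% O2. The levels were apart in Psmb7 and overlapped in Psmb5 and Psmb6.

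The immunoproteasome genes had a median difference of 21.0 points, and none was lower in both rounds. Psmb10 ranked at 92.9 and 97.2 at 4% O2, against 56.4 and 69.1 at 20% O2. Psmb9 ranked at 73.9 and 67.5 at 4% O2, against 57.2 and 61.5 at 20% O2. Psmb8 ranked at 83.4 and 86.8 at 4% O2, against 38.8 and 89.4 at 20% O2. Psmb10 and Psmb9 did not overlap between levels and Psmb8 did. With summed scores the median was 2.8 points, with Psmb10 at 14.3, Psmb9 at 2.8 with rounds of opposite sign (10.8 and −5.2) and Psmb8 at −0.1. Psmb1 of the beta ring and the chaperone gene Psmd10 completed the 4 highest differences with the same sign in both rounds, at 14.1 and 12.4 points, but Psmb1 turned to −9.6 points when scores were summed.

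Assembly chaperone genes had lower ranks in both rounds at Psmd5, Psmg2 and Psmg3 and higher ones at Psmd10. Among activator genes only Psme3 had the same sign in both rounds, at −25.5 points, with ranks of 68.0 and 34.6 at 4% O2 against 87.8 and 65.9 at 20% O2. With summed scores Psme3 lost its common sign (8.0 and −23.9 in the rounds), while Psme4 and Psme2 were lower in both. The activator genes Psme1 and Psme2, which encode the partners of the interferon-inducible activator, moved with the round and not with the level. Psme1 ranked at 49.6 and 91.7 at 4% O2, against 29.0 and 93.6 at 20% O2.

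Islands covered most of the length of a typical proteasome gene, and the members are shorter than the median gene, as given above. Among the 44 members with POLR2S2 islands in all 4 libraries, islands covered a median of 100% of the gene in both 4% O2 libraries, against 76.0% and 100% in 20% O2 replicates 1 and 2. Over all genes called in all 4 libraries the 4% O2 libraries had medians of 89.8% and 100%, against 44.1% and 87.7% in the 20% O2 libraries. At least 90% of the gene was covered at 36 and 38 members at 4% O2, against 17 and 31 at 20% O2. The same order was seen in all genes, where 49.8% and 58.9% were covered to that extent at 4% O2 and 27.6% and 48.1% at 20% O2, and it followed the number of reads in islands given above, whose part in it was not tested.

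The level of POLR2S2, as reads per kb of window, placed the members at a median of the 62.2 percentile of called genes, with 30 of 44 above the midpoint. Psme3, Psmd7 and Psmc5 had the highest mean over the 4 libraries and Psmg4, Psmd14 and Psmf1 the lowest. Psme3, which encodes a nuclear activator, had 68.62 and 90.83 reads per kb at 4% O2, against 51.18 and 53.84 at 20% O2. Psmd7 of the lid had 75.26 and 107.79 reads per kb at 4% O2, against 36.01 and 53.41 at 20% O2, and Psmc5 had 72.02 and 90.58 at 4% O2, against 50.51 and 47.26 at 20% O2. These levels are not scaled to library size. By the mean of the percentiles within each library, the same 3 genes were highest, at 89.4, 89.3 and 88.0, and Psmg4 (15.2), Psmd14 (20.1) and Psmd9 (29.0) were lowest, with Psmf1 next at 30.5. At the low end, Psmg4 had 8.7 and 11.21 reads per kb at 4% O2, against 3.37 and 2.89 at 20% O2. Psmd14, which encodes the deubiquitinating subunit of the lid, had 1.56 and 29.62 at 4% O2, against 1.72 and 18.13 at 20% O2, and Psmf1, the inhibitor gene, had 20.77 and 4.88 at 4% O2, against 13.7 and 13.27 at 20% O2. Psmd14 was low in round 1 at both levels.

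To compare O2 levels, islands of the 4 libraries were merged into regions, reads in islands were summed, and regions called in all 4 libraries were tested with edgeR after scaling between libraries. In this fit, by O2 level alone, no region of any polymerase form passed an adjusted p of 0.05. The background was therefore 0.0% of 7811 POLR2, 9933 POLR2S5 and 5936 POLR2S2 regions, and 0 of 43, 50 and 49 member regions passed. At an unadjusted p under 0.05 the counts were 174, 288 and 349 of all regions and 0, 0 and 1 of the member regions. DESeq2 called 1, 19 and 53 regions and 0 member regions in each form. With the replicate number as a block, edgeR called 2, 3 and 11 regions and 0 member regions in each form. The lowest adjusted p of a member region was 0.81 by edgeR without the block and 0.25 with it. Standard errors below are from the fit without the block unless stated, and that fit leaves out the pairing by replicate number. The block narrowed some of them and widened others. The POLR2S5 region of Psmf1 went from 0.59 to 0.27 and the POLR2S2 region of Psmb6 from 0.43 to 0.47.

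The medians of the group lay near 0. The median log2 ratio of member regions, 4% over 20% O2, was 0.08 for POLR2S2 (0.01 and 0.17 in rounds 1 and 2), against a median of 0.0 for all regions. For POLR2S5 it was −0.01 (−0.04 and 0.12), against −0.01 for all regions, and for POLR2 it was 0.07 (0.01 and 0.08), against −0.03 for all regions. The standard error of a member region's own ratio had a median of 0.37 for POLR2S2, 0.33 for POLR2S5 and 0.34 for POLR2.

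POLR2S2 ratios, which follow elongating polymerase, were above 0 in both rounds at 24 of 49 member regions, against a background of 32.4%, and below 0 in both at 14, against 32.1%. Both 4% O2 values lay above both 20% O2 values at 17 regions (background 20.3%) and below them at 8 (background 19.0%). By role, the median log2 ratio was 0.79 in the catalytic beta ring (3 regions), 0.78 in the immunoproteasome genes (2) and 0.36 in the alpha ring (7). It was 0.21 in the non-catalytic beta ring (5), 0.08 in the non-ATPase genes (11) and −0.02 in the ATPase genes (6). It was −0.4 in the chaperone genes (7) and −0.68 in the activator genes (5). The activator regions were those of Psme4 (−1.06, −0.91 and −0.68), Psme3 (−0.38) and Psme1 with Psme2 (0.72), so the activator median was a Psme4 value. Of the 7 alpha ring regions 6 were above 0 in both rounds.

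**Figure D4:**
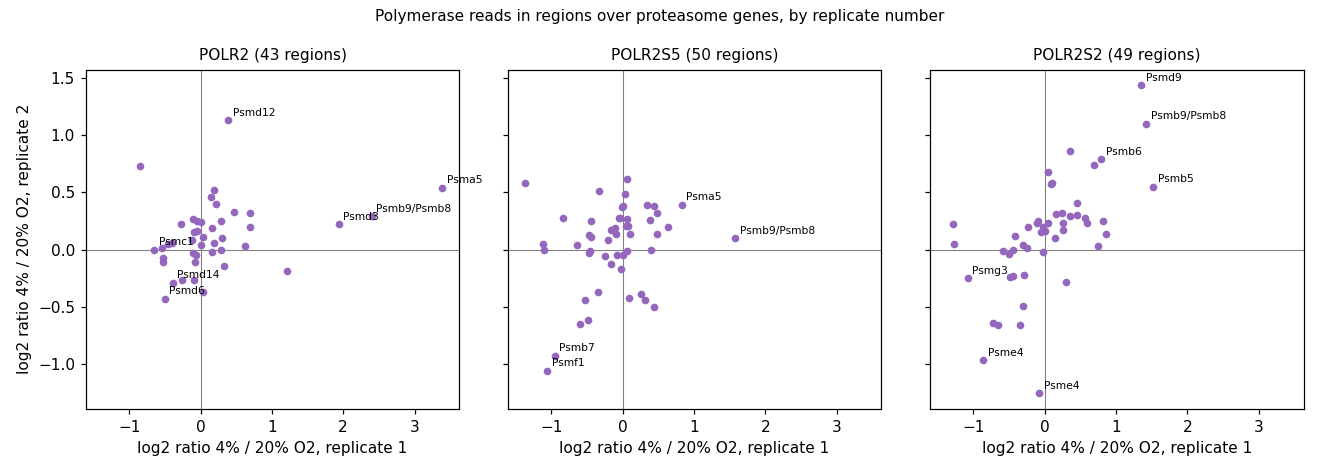
Log2 ratio of polymerase reads, 4% over 20% O2, in each region over proteasome genes. The horizontal axis is round 1 and the vertical axis round 2, and each point is a region called in all 4 libraries. POLR2S2 has Psmd9, Psmb9/Psmb8, Psmb5 and Psmb6 at the upper right and regions of Psme4 at the lower left, and for POLR2 the ratios of Psma5, Psmb9/Psmb8 and Psmd3 are wide in round 1 alone.

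The region over Psmb9 and Psmb8 had the lowest p of all member regions. It is chr17:34183401-34219200, 35.8 kb long, and it also spans the antigen peptide transporter genes Tap1 and Tap2, so the reads cannot be given to the proteasome genes alone. POLR2S2 islands there held 1147 and 1947 reads at 4% O2, against 206 and 538 at 20% O2. The log2 ratio was 1.24 ± 0.4 (SE, n = 2 per level), with 1.42 and 1.1 in the rounds and an edgeR adjusted p of 0.809. The levels did not overlap. Islands covered 31.4 and 35.0 kb of the region at 4% O2, against 10 and 19.2 kb at 20% O2, and the log2 ratio of reads per kb of island was 0.0, against a median of −0.35 over all POLR2S2 regions.

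Inside that region, Psmb9 was the only member with POLR2S2 islands in both 4% O2 libraries and in neither 20% O2 library, as were 1.49% of all genes. Islands covered 6.2% and 74.1% of Psmb9 at 4% O2 and 0.0% and 0.0% at 20% O2. In 4% O2 replicate 1 the island therefore reached only the edge of the gene. Psmb8 had 39.96 and 45.39 reads per kb of window at 4% O2, against 0 and 13.07 at 20% O2.

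The chaperone gene Psmd9 had the highest POLR2S2 ratio, at chr5:123225201-123246400, with 193 and 964 reads at 4% O2 against 36 and 210 at 20% O2 and a log2 ratio of 1.42 ± 0.83 (SE, n = 2 per level). The rounds gave 1.35 and 1.44. Leaving out a library gave 0.32 (without 4% O2 replicate 2) to 2.46 (without 20% O2 replicate 2). The replicates of each level differed more than the levels did, and a second Psmd9 region had a ratio of −0.45. Psmb5 had 444 and 881 reads at 4% O2 against 74 and 357 at 20% O2, with a log2 ratio of 0.89 ± 0.61 (SE, n = 2 per level), and Psmb6 had 642 and 1109 at 4% O2 against 179 and 380 at 20% O2, with 0.79 ± 0.43 (SE, n = 2 per level). Both rounds were above 0 for each, at 1.52 and 0.55 for Psmb5 and 0.79 and 0.79 for Psmb6. Psmb5 was 0.38 without 20% O2 replicate 1 and 1.73 without 20% O2 replicate 2, and Psmb6 was 0.06 when reads were counted over its gene window. The third catalytic gene, Psmb7, had 1926 and 2590 reads at 4% O2 against 1244 and 1410 at 20% O2 and a log2 ratio of −0.19, with rounds of opposite sign. None of these passed edgeR, with an adjusted p of 0.809 for Psmd9, Psmb5 and Psmb6 and 0.895 for Psmb7.

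Psma7 and Psmb10 had smaller POLR2S2 ratios. The region of Psma7, which reaches into Lsm14b and Ss18l1, held 1818 and 3283 reads at 4% O2 against 845 and 1213 at 20% O2, a log2 ratio of 0.36. The region of Psmb10, which spans 4 other genes, held 1704 and 2918 reads at 4% O2 against 770 and 1168 at 20% O2, a ratio of 0.32. Scaled values of the levels did not overlap in either.

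At the low end, POLR2S2 ratios were below 0 in all 3 regions of Psme4, the gene of a nuclear activator, which is 109376 bp long. The region with the most reads per kb, chr11:30840801-30868400, held 966 and 1257 reads at 4% O2 against 766 and 1164 at 20% O2, with a log2 ratio of −0.68 ± 0.35 (SE, n = 2 per level). The region at its far end, shared with Erlec1, held 384 and 419 reads at 4% O2 against 336 and 489 at 20% O2 and had a ratio of −0.91. The third Psme4 region, at −1.06 ± 1.03 (SE, n = 2 per level), held 289 and 1454 reads at 4% O2 against 147 and 2061 at 20% O2, and its rounds gave −0.08 and −1.26. Raw reads of the first of these regions were higher at 4% O2, and the ratio was below 0 after scaling to the larger sum of reads in islands at 4% O2. The chaperone gene Psmg3 followed, with 248 and 447 reads at 4% O2 against 254 and 315 at 20% O2 and a ratio of −0.69. The inhibitor gene Psmf1 had 627 and 632 reads at 4% O2 against 476 and 592 at 20% O2 and a ratio of −0.66, with −0.65 and −0.66 in the rounds. The adjusted p was 0.809 for Psmg3, Psmf1 and the first 2 Psme4 regions and 0.838 for the third.

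POLR2S5, the form near gene starts, was above 0 in both rounds at 15 of 50 member regions (background 29.8%) and below 0 in both at 12 (background 32.0%). The levels were apart with 4% O2 higher at 10 (background 15.3%) and with 4% O2 lower at 3 (background 15.4%). Psmf1 was lowest, with 544 and 260 reads at 4% O2 against 644 and 562 at 20% O2 and a log2 ratio of −1.06 ± 0.59 (SE, n = 2 per level), and both rounds gave −1.06. With the replicate block the Psmf1 ratio was −1.06 ± 0.27 (SE, n = 2 per level), with an edgeR adjusted p of 0.281. Its islands covered 17.6 and 5.4 kb at 4% O2, against 25.2 and 17.8 kb at 20% O2. Psmf1 thus stood among the 5 lowest regions with a common sign in all 3 polymerase forms.

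Psmb7 had 2 POLR2S5 regions, both below 0. The region shared with Nek6 held 576 and 203 reads at 4% O2 against 629 and 403 at 20% O2, a ratio of −0.95, and the region over the rest of Psmb7 held 711 and 594 at 4% O2 against 610 and 965 at 20% O2, a ratio of −0.62. Psmc2 completed the 4 lowest with a common sign at −0.55, with 229 and 206 reads at 4% O2 against 181 and 330 at 20% O2. Psmb5 and Psmb6 were near 0, at −0.06 and 0.17.

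The highest POLR2S5 ratio was at Psma5, an alpha ring gene whose region reaches into Sort1. It held 2864 and 2321 reads at 4% O2 against 912 and 1839 at 20% O2, with a log2 ratio of 0.62 ± 0.29 (SE, n = 2 per level) and an edgeR adjusted p of 0.999. The region of Psmb9 and Psmb8 held 1372 and 1732 reads at 4% O2 against 258 and 1672 at 20% O2, with a ratio of 0.61, of which 1.58 came in round 1 and 0.1 in round 2. The region of Psme1 and Psme2 held 1844 and 2390 reads at 4% O2 against 769 and 1905 at 20% O2 and had a ratio of 0.4, and that of Psmg4 held 892 and 992 reads at 4% O2 against 326 and 894 at 20% O2, also 0.4. The region of Psme1 and Psme2 also holds Fitm1, Emc9, Rnf31 and Irf9, and its POLR2S2 ratio was 0.72, with 0.69 and 0.74 in the rounds.

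POLR2, the antibody to polymerase regardless of these marks, was above 0 in both rounds at 19 of 43 member regions (background 28.8%) and below 0 in both at 10 (background 32.9%). Both 4% O2 values were above both 20% O2 values at 9 (background 14.9%) and below them at 4 (background 15.9%). Psma5 was highest, with 970 and 1461 reads at 4% O2 against 45 and 829 at 20% O2 and a log2 ratio of 1.4 ± 0.75 (SE, n = 2 per level). The rounds gave 3.39 and 0.54, so most of the difference came with 20% O2 replicate 1. The same held for the region of Psmb9 and Psmb8, with 816 and 1704 reads at 4% O2 against 76 and 1151 at 20% O2, and for Psmd3, with 400 and 631 at 4% O2 against 51 and 448 at 20% O2. Their ratios were 0.88 and 0.84, with round 1 at 2.4 and 1.94 and round 2 at 0.29 and 0.22. Psmd12 was more even, with 688 and 1234 reads at 4% O2 against 261 and 464 at 20% O2, a ratio of 0.73 and rounds of 0.39 and 1.13.

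Leaving out 20% O2 replicate 2 brought 4 POLR2 member regions past edgeR, all higher at 4% O2. They were those of Psma5 (log2 ratio 3.36, adjusted p 0.00317), Psmb9 and Psmb8 (2.59, adjusted p 0.00812), Psma6 (1.28, adjusted p 0.0284) and Psmd3 (1.93, adjusted p 0.0429), and 2.5% of all 7811 POLR2 regions passed in the same fit. In that fit the 20% O2 level was the replicate 1 library alone, the one with 2057835 reads in islands, and it was assumed to vary like the 4% O2 libraries. With all 4 libraries the adjusted p of each was 0.992.

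The lowest POLR2 ratios with a common sign were those of Psmd6, Psmc1, Psmf1 and Psmd14. Psmd6 of the lid held 71 and 147 reads at 4% O2 against 50 and 164 at 20% O2, a log2 ratio of −0.47 ± 0.37 (SE, n = 2 per level). Psmc1, an ATPase gene, held 249 and 353 reads at 4% O2 against 194 and 292 at 20% O2, a ratio of −0.38, with −0.65 in round 1 and a value just under 0 in round 2. Psmd14 held 265 and 466 reads at 4% O2 against 172 and 470 at 20% O2, a ratio of −0.34, and Psmf1 held 226 and 303 at 4% O2 against 161 and 270 at 20% O2, also −0.34. Psmc3, whose H3K9ac rank was higher at 4% O2, had 696 and 1113 reads at 4% O2 against 495 and 965 at 20% O2 and a ratio of −0.32. Differences of this size lie within 2 standard errors. Psmb5, Psmb6 and Psma7 had POLR2 ratios of 0.22, −0.07 and −0.02.

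**Figure D5:**
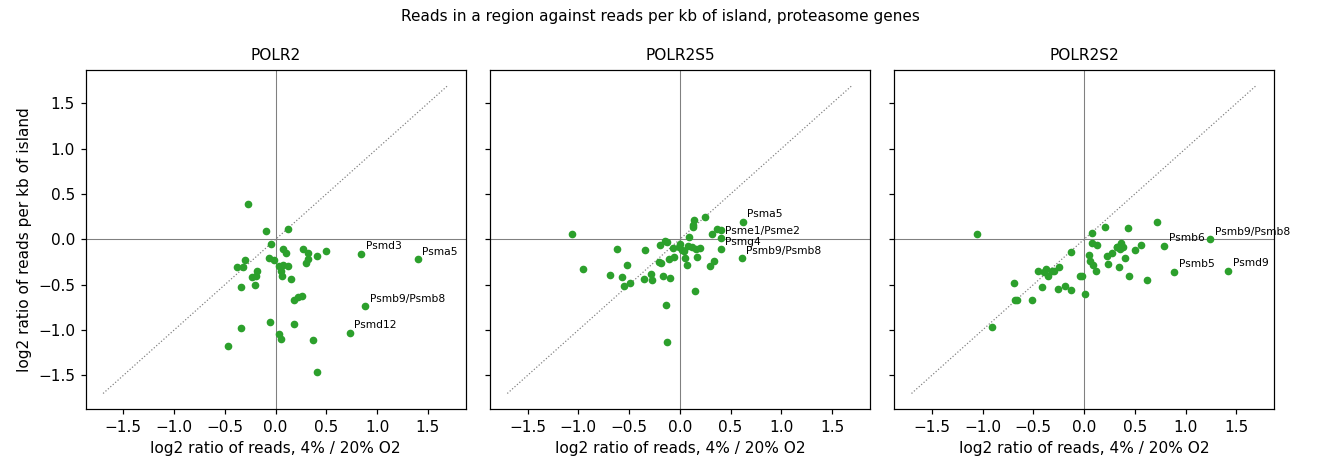
Log2 ratio of reads (horizontal) against log2 ratio of reads per kb of island (vertical), 4% over 20% O2, for each region over proteasome genes. The dotted line marks equal ratios. Most points lie below the line, and the regions with the highest read ratios, such as Psmb9/Psmb8 for POLR2S2 at 1.24 and 0.0, lie near or under 0 on the vertical axis.

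Dividing reads by the length of island called turned the medians of POLR2S2 and POLR2 below 0, where that of POLR2S5 already was. Reads per kb of island had a median log2 ratio over member regions of −0.31 for POLR2S2, −0.12 for POLR2S5 and −0.31 for POLR2, against −0.35, −0.27 and −0.44 for all regions. Islands were longer at 4% O2 in 43 of 49 POLR2S2 member regions in round 1 and 31 in round 2, in 37 and 29 of 50 for POLR2S5 and in 36 and 33 of 43 for POLR2. The median log2 ratio of island length over all regions was 0.51 and 0.02 in rounds 1 and 2 for POLR2S2, 0.42 and 0.01 for POLR2S5 and 0.59 and 0.17 for POLR2, so the greater lengths came mostly in round 1. The part that depth plays in this was not tested.

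CTCF and RAD21 peaks were less frequent at proteasome genes and had lower ranks than H3K9ac peaks did. Over the 31 members with CTCF in all 4 libraries, the median rank of the top peak was 34.8 among 11292 genes. In 27 of them with a strand, 13 had the top CTCF peak within 1 kb of the start in all 4 libraries. The share was 17.4% over 9000 genes with a strand and CTCF in all 4 libraries. The part of the shorter length of the members in this was not tested. Merged over libraries, 45 CTCF peaks were found in all 4, at 30 members, and 15 of these also had a RAD21 peak in all 4 libraries. All 16 RAD21 peaks found in all 4 libraries overlapped a CTCF peak in at least 1 library, and 15 did in all 4.

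The strongest sites are given by the percentile of a peak within its own list. Psme3 held the highest for both proteins, at its gene end, chr11:101322923-101324919 for CTCF, with list percentiles of 98.8 and 98.6 at 4% O2, against 96.7 and 95.6 at 20% O2. RAD21 at that site stood at 99.3 and 99.1 at 4% O2, against 85.3 and 96.4 at 20% O2. Psmc4, Psmd6 and Psmc6 had the next highest CTCF peaks, each within 1 kb of the start, with mean list percentiles of 95.8, 94.6 and 93.5. For RAD21 the next were Psme3ip1 (88.9, inside the gene), Psmd11 (85.1, at the start) and Psma3 (84.7, at the start, called in 3 libraries). The peaks of these genes were present at both O2 levels.

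Ranks of CTCF were higher at 4% O2 in both rounds at 13 of 31 members (background 27.6%) and lower in both at 5 (background 27.6%), with a median difference of 2.17 points against 0.07 for all genes. Both 4% O2 ranks of CTCF lay above both 20% O2 ranks at 8 members (background 10.9%) and below them at 1 (background 9.67%). The 2 libraries of a level differed by a median of 10.2 points at 4% O2 and 7.0 at 20% O2. Psmc4, Psmc5 and Psmc6, the ATPase genes with CTCF in all 4 libraries, were higher in both rounds, while their H3K9ac ranks were lower. The CTCF differences in rounds 1 and 2 were 16.2 and 2.2 points for Psmc4, 2.0 and 25.1 for Psmc5 and 1.4 and 4.0 for Psmc6. CTCF ranks of the levels overlapped in Psmc4 and Psmc5 and were apart in Psmc6. For RAD21, 6 of 14 members were higher in both rounds (background 28.8%) and 3 lower (background 29.3%). RAD21 ranks were apart with 4% O2 higher at 4 members (background 16.0%) and with 4% O2 lower at 2 (background 16.9%).

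Calls in both libraries of 1 level and neither of the other were few. No member was called at 20% O2 alone for any of the 6 antibodies, and such calls were rare in all genes too. Of all 21887 genes they were at 48 (H3K9ac), 35 (POLR2), 55 (POLR2S5), 39 (POLR2S2), 8 (CTCF) and 138 (RAD21). At 4% O2 alone, Psmb6 had CTCF (0.434% of all genes did) with scores of 4.34 and 5.87, near the low end of the lists, and Psma1 and Psmb3 had RAD21 (0.425% of all genes). At Psmb3 the RAD21 peaks of the 2 libraries lay at different places in the gene. At Psma1 a RAD21 peak common to both 4% O2 libraries lay upstream at −520 bp from the start, at list percentiles of 37.3 and 50, inside a CTCF peak called in all 4 libraries.

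Other genes of the pathway were followed in a list of 28, all of which matched the gene table, with assembly and regulatory factors, ubiquitin genes, activating enzymes and shuttle factors. H3K9ac lay at 28 of 28 in all 4 libraries (background 58.9%). POLR2, POLR2S5 and POLR2S2 islands lay at 24, 26 and 26 (backgrounds 42.2%, 52.7% and 42.8%). CTCF peaks lay at 16 in all 4 libraries (background 51.6%) and RAD21 peaks at 6 (background 34.6%). The median H3K9ac rank difference of the 28 genes was −2.0 points. At 4% O2, 7 genes were higher in both rounds (background 26.6%) and 11 lower (background 26.6%). None of 31 regions passed edgeR in any form, and the median log2 ratios were −0.06 for POLR2, −0.06 for POLR2S5 and −0.02 for POLR2S2. Pomp, the proteasome maturation protein that guides core assembly, had the lowest ratio for both POLR2S5 (−1.17) and POLR2S2 (−1.05). Ecpas had the highest POLR2S5 ratio (1.56) and Rad23b, a shuttle factor, the highest POLR2S2 ratio (1.11).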

How the data were processed

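The deposited lists hold peaks (MACS2, for CTCF, RAD21 and H3K9ac) and islands (SICER, for the polymerase forms) called in each of 24 libraries, per the file headers. Alignment to mm10 with BWA and the use of Picard are named per the submitters' processing notes, without versions or settings. The unnamed score of the deposited peak lists was taken, from its values, as −log10 of a p-value or q-value, and served to rank peaks within a list. The unnamed score of the deposited island lists was taken on the same basis as the raw read count of an island. Replicate 2 lists stood in a second place in the deposit and were used once, and 12 further lists or summit files were copies. A CTCF list, of replicate 1 at 20% O2, has a header code that no label explains, and its label alone placed it.

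A total of 21887 protein-coding genes on chromosomes 1 to 19, X and Y came from the RefSeq table of GRCm38.p6. An interval counted for a gene when it overlapped the gene or 1 kb each side by at least 1 bp. Regions were merged islands of the 4 libraries of a form, and those called in all 4 were tested with edgeR 4.0.16 (quasi-likelihood, TMM scaling, O2 level alone) with Benjamini-Hochberg adjustment over all regions of the form; DESeq2 1.42.0 was an alternative. The code was tested on simulated counts. Same-numbered libraries, which share a flow cell, deviated together from their group means (correlations across regions of 0.53 for POLR2, 0.55 for POLR2S5 and 0.39 for POLR2S2), so the replicate number pairs the libraries. The blocked fit is given for the counts of regions passed, the lowest adjusted p and the group medians. Of single regions, it is given for Psmf1 (POLR2S5) and Psmb6 (POLR2S2). The members, gene lists, motifs and naming rule were chosen with earlier results of these data known. Named genes were the catalytic and immune or tissue-restricted subunits, the 4 highest and 4 lowest differences with the same sign in both rounds per polymerase form and for H3K9ac, calls at 1 O2 level, the 4 strongest CTCF and RAD21 peaks, members without calls, and the 3 highest and 3 lowest POLR2S2 levels; others were named after their values were seen.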

Additional observations from a re-analysis of the deposited data

How the results depend on the processing

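Calls in all 4 libraries moved when the window or the list was narrowed. Counting only intervals with their centre in the window gave 26 members for POLR2, 29 for POLR2S5 and 22 for POLR2S2. Where the other islands had their centres was not tested. The upper part of each list by its own score gave 24 for POLR2 and 6 for RAD21, and RAD21 gave 9 with no flank and 7 at gene ends alone. Leaving out a library gave 14 to 21 members for RAD21. The shares of all genes under these settings are not given here. The H3K9ac median rank difference was −5.74 with summed scores, −6.48 at gene ends, −4.69 with genes called in at least 1 library, −6.17 without Psmc3ip and Psme3ip1, an alternative chosen after seeing the data, and −8.16 to −1.41 without a library. It kept its sign throughout, and −1.41 was without 20% O2 replicate 2. The counts of members with separate H3K9ac ranks were also varied after seeing the data. With summed scores they were 14 below (background 14%) and 3 above (background 13.5%). At gene ends, where 46 members were ranked, they were 12 below (background 13.4%) and 5 above (background 13.6%). Without a library the condition is looser, and they were 21 to 24 below and 9 to 13 above, with backgrounds of 29.9% to 33.7% and 30.6% to 33.8%.

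The POLR2 median log2 ratio was −0.10 over gene windows, −0.31 per kb of island and 0.01 to 0.15 without a library, and the POLR2S2 median was −0.31 per kb of island. POLR2 member regions past edgeR were 0 to 4 without a library. With the replicate block the pairing changed no call of a member region, and the medians were 0.07 for POLR2, −0.03 for POLR2S5 and 0.09 for POLR2S2, with 2, 3 and 11 of all regions called. The H3K9ac median is −5.27 with the block by construction.

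Single regions that reversed did so mostly per kb of island. For POLR2 these were Psma5 (−0.22), Psmb9 and Psmb8 (−0.74), Psmd3 (−0.16) and Psmd12 (−1.03). For POLR2S5 they were Psmf1 (0.06), Psmb9 and Psmb8 (−0.21) and Psmg4 (−0.11), and Psmg4 also reversed over its gene window (−0.03). For POLR2S2 they were a Psme4 region (0.06), Psmd9 (−0.35), Psmb5 (−0.36) and Psmb6 (−0.07). Without a library, Psmf1 ranged over −0.66 to 0.07 and Psmc1 over −0.75 to 0.13 for POLR2, a Psmb7 region over −2.0 to 0.11 for POLR2S5 and the same Psme4 region over −2.16 to 1.02 for POLR2S2; the upper values were without 20% O2 replicate 1, or for Psme4 replicate 2. Values moved by over 1.5 times without a library in many others, among them Psmd9 (0.32 to 2.46) and Psmb5 (0.38 to 1.73) for POLR2S2, and Psmb6 was 0.06 over its gene window. The cause of these reversals was not tested beyond the length of island called. No source states the depth. The 20% O2 replicate 1 libraries had the fewest polymerase reads in islands, and whether depth set their calls was not tested.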
